A study of Mus musculus with 24 samples.

Results

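The 10 genes described here encode the keratin filaments and the adhesion proteins by which mammary epithelium is usually recognised. They are Krt7, Krt8, Krt18 and Krt19 of luminal cells, Krt5, Krt14, Krt15 and Krt17 of basal cells, and the adhesion proteins Epcam and Cdh1 (E-cadherin). Krt15 is grouped with the basal keratins from stratified epithelia, and its cell source in these glands was not tested. The genes were chosen by symbol, and all 10 were found among the 32544 rows of the deposited table. The study sequenced polyadenylated RNA from inguinal mammary glands of 24 mice on a BL/6 background, as snap frozen tissue, under a title on organelles and lactation stress. There were 8 groups of 3 mice. NZB glands came from mice that were not lactating or at days 8, 14 or 21 of lactation, and C57 glands from the same 4 stages. The labels call the genotypes BL/6 NZB and BL/6 C57, names also used for mouse strains that carry NZB or C57 mitochondrial DNA in a BL/6 nuclear background. The age of the mice was not given in the sources used here.

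Keratins form filaments from pairs of a type I and a type II chain, and the pairs in use mark the kind of epithelial cell. The mammary gland is a tree of ducts and alveoli with an inner luminal layer, which makes milk during lactation, and an outer basal layer of myoepithelial cells, which contract to eject it. Krt8 with Krt18 is the pair of simple luminal epithelium and Krt5 with Krt14 that of basal cells, while Epcam and Cdh1 join epithelial cells to each other, Cdh1 through the adherens junction. Before lactation the epithelium is a thin network of ducts in a pad of fat, and its share of a piece of gland depends on where the piece was cut.

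Whole glands were measured, so fewer cells of a type and less RNA per cell cannot be told apart in any value given here. Each mouse had 7031812 to 24253128 reads assigned to genes, and the labels give separate mice. The 17 milk protein genes held 0.465% to 0.486% of the reads in C57 and 0.989% to 1.97% in NZB non-lactating glands. They held 61.7% to 76.4% in lactating glands other than NZB glands on day 21, in which they held 30.2%, 17.9% and 25.6%. Levels are therefore given as counts per 1000000 reads outside those 17 genes (non-milk CPM), and as that value per kilobase of transcript wherever genes are set against each other. Gm29216, which lies in a nuclear copy of mitochondrial DNA, was at 0 CPM in all 12 NZB glands and at 268 to 3591 CPM in the 12 C57 glands. These included a non-lactating gland (mouse 3) titled C57 whose genotype tag says NZB, which was kept as C57. Differences are log2 fold changes of non-milk CPM + 1 from limma fitted to all 24 mice, with the standard error (SE) and a p-value adjusted by the Benjamini-Hochberg method over 16121 genes. A gene is said to have risen or fallen where the adjusted p was below 0.05. Statements that groups overlap or lie apart describe the single mice only. The share of all genes that lie apart is not given, so lying apart is nowhere read as a result of its own.

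The promoters of 4 members are shown first, because Krt8 and Krt18 are neighbouring genes whose levels over the 24 glands were the most alike, while Krt7 fell and Epcam rose in C57 lactation. Krt8 (chr15:101996698-102004482, minus strand) and Krt18 (chr15:102028180-102032027, plus strand) stand head to head with 23697 bases between them (GRCm38, GENCODE M21). Each window runs from 250 bases before to 50 bases after a RefSeq transcription start (GRCm38.p6), read 5′ to 3′ on the strand of the gene. Capitals mark CAGGTG or its reverse complement CACCTG, the E-box letters known to be bound by Snai and Zeb factors, repressors of Cdh1 whose own levels are given later. The windows are chr15:102004293-102004592 for Krt8, chr15:102027966-102028265 for Krt18, chr15:101412153-101412452 for Krt7 and chr17:87635729-87636028 for Epcam, with Krt8 on the minus and the others on the plus strand.
Krt8: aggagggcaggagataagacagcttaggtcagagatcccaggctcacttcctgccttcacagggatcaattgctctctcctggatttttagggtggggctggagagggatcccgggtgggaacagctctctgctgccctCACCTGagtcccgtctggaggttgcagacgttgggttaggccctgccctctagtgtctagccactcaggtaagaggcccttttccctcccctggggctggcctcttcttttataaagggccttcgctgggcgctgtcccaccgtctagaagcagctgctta
Krt18: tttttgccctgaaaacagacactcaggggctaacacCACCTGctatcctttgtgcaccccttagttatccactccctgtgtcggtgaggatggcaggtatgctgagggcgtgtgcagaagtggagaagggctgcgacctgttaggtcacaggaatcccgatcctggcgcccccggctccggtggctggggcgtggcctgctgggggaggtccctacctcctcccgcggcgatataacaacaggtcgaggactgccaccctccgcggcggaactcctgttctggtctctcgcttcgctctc
Krt7: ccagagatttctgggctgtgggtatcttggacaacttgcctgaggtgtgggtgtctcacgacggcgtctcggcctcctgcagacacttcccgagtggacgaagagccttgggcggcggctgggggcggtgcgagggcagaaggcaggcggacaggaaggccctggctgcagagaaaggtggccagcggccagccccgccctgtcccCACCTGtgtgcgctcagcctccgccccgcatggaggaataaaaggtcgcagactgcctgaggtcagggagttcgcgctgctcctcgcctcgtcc
Epcam: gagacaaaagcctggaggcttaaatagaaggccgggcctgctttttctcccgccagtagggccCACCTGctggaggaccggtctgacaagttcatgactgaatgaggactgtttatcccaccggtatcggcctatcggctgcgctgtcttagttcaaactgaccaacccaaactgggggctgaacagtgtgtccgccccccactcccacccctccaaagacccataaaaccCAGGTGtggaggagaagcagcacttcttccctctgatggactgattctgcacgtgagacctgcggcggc
The first letter of the match stood at position -111 in Krt8, -214 in Krt18 and -44 in Krt7, and at positions -187 and -19 in Epcam, counted from the start. Of the 6 members with a window in the RefSeq table, 5 held such letters (Krt5, Krt7, Krt8, Krt18 and Epcam, not Krt14), against 20.2% of 32851 windows of the same length. A match is a description of the letters and not a site. The RefSeq start of the Krt14 window lies 1518 bases and that of the Krt7 window 1360 bases inside the gene as GENCODE draws it, so these windows do not show the 5′ end of the GENCODE gene, and the RefSeq starts of the other 4 lie within 140 bases of it.

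The order of the members changed with the stage. Per kilobase, Krt19 averaged 20.8 ± 24.2 and Krt18 18.4 ± 16.9 in NZB non-lactating glands (SD, n = 3 each), and 119 ± 52.2 and 92.1 ± 39.7 in C57 ones, the highest of the 10 in both genotypes. The 3 mice of a genotype overlapped between these genes and the next in order. Epcam was the highest member in the lactating glands of both genotypes apart from NZB day 21. It averaged 94.9 ± 18.04 per kilobase on day 8 and 127 ± 21.2 on day 14 in NZB glands, and 87.6 ± 3.31, 121 ± 6.44 and 119 ± 17.3 on days 8, 14 and 21 in C57 glands. In each of those 5 groups all 3 mice lay above every mouse for the next gene in order, which was Krt18 on day 8 and Cdh1 later. In NZB glands on day 21 Krt18 was first (195 ± 93.1), followed by Cdh1 (149 ± 14.8), Epcam (136 ± 18.6) and Krt8 (122 ± 34.4), and the mice overlapped along that order. Krt15, a keratin known from basal cells of stratified epithelia, was the lowest member in non-lactating glands and in NZB glands on day 21. Krt7 was the lowest in the other groups when divided by a transcript of 4094 bases. Without that division its mean was above that of Krt15 in these groups except C57 day 14 (9.05 against 9.48 non-milk CPM). The last place of Krt7 thus depends on the length used.

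**Figure D1:**
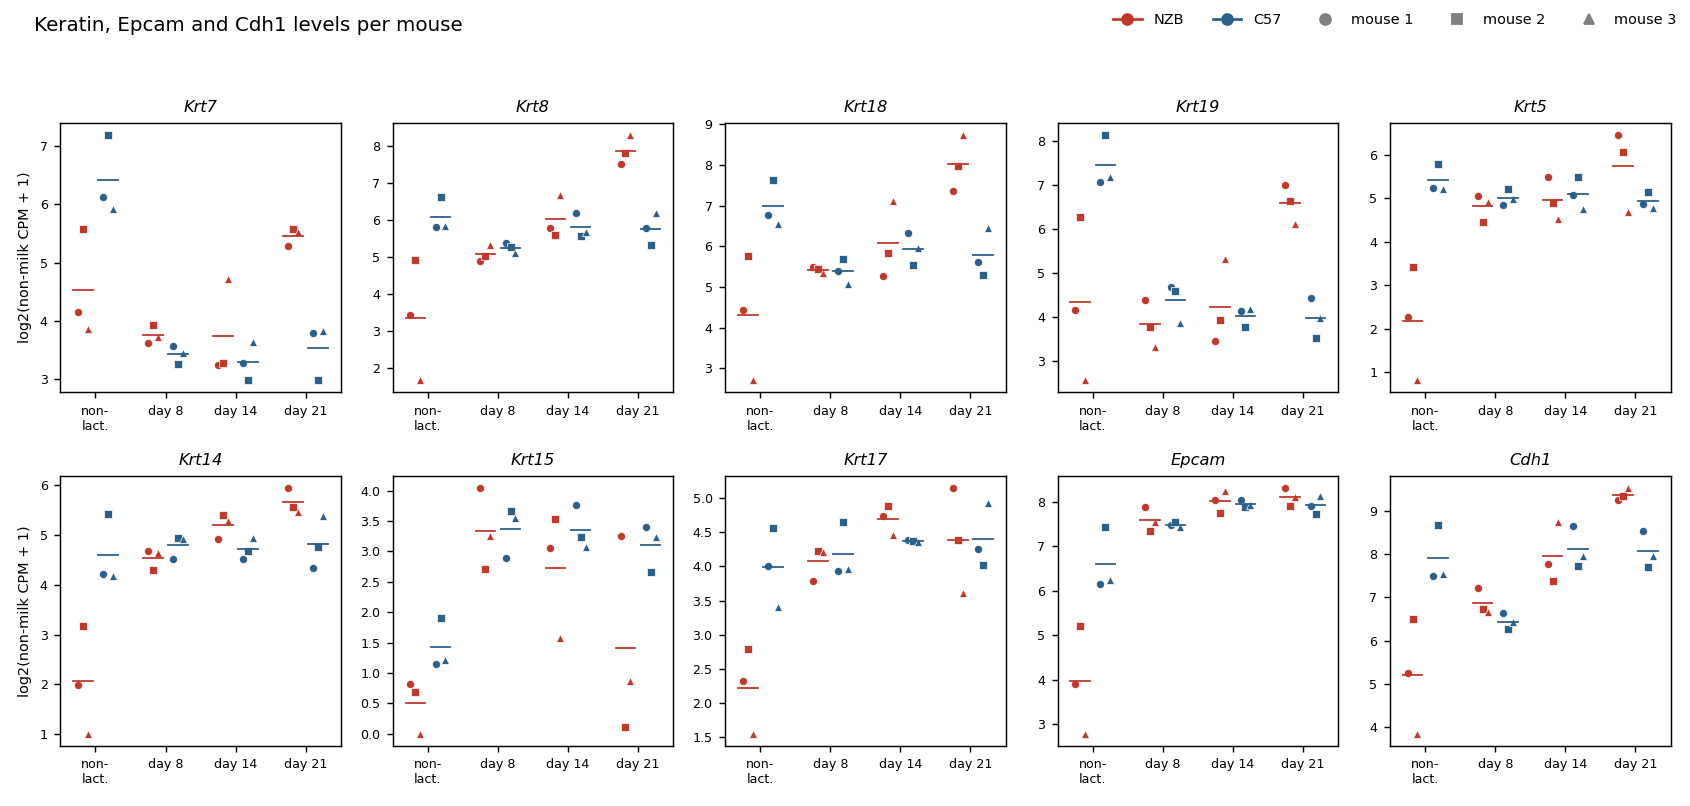
Level of each of the 10 genes in every mouse, as log2(non-milk CPM + 1) on the vertical axis against the stage, with NZB glands in red, C57 glands in blue, a marker shape for each of the 3 mice and a bar for the mean. All 10 genes are lower in NZB than in C57 non-lactating glands, and Krt7, Krt8, Krt18, Krt19 and Cdh1 stand above C57 in NZB glands on day 21.

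Non-lactating glands were compared between genotypes mouse by mouse, since their share of ducts can vary. Of the 10 genes, 9 were lower in NZB than in C57 glands, and only Krt15 missed the threshold (-0.92, adjusted p = 0.41). Of all genes 5.30% were called in this comparison, 1.70% higher and 3.60% lower in NZB (274 higher and 580 lower, and 481 higher and 718 lower with the milk genes left in the total). The median log2 difference was -2.65 over the members and 0.10 over all genes.

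Among the luminal keratins, Krt18 had 20.7, 53.1 and 5.57 non-milk CPM in NZB mice 1, 2 and 3, against 108, 198 and 91.8 in C57 mice 1, 2 and 3 (log2 fold change -2.67, SE 0.54, adjusted p = 0.0050). Krt8, its type II partner, had 9.75, 29.3 and 2.199 in NZB mice and 54.95, 96.8 and 55.5 in C57 mice (log2 fold change -2.74, SE 0.49, adjusted p = 0.0017). Krt19, a small luminal keratin, had 16.99, 76.2 and 4.96 in NZB and 134, 282 and 145 in C57 mice (log2 fold change -3.13, SE 0.60, adjusted p = 0.0030). For each of these genes every NZB mouse lay below every C57 mouse, NZB mouse 2 came nearest to C57, and NZB mouse 3 was the lowest. Krt7, a type II keratin rich in ducts, had 16.8, 46.7 and 13.6 in NZB mice, against 69.1, 145 and 59.6 in C57 mice (log2 fold change -1.88, SE 0.40, adjusted p = 0.0077). Its groups did not overlap either, but the call rested on single mice: the log2 fold change was -1.49, adjusted p = 0.072 without C57 mouse 2, and -1.55, adjusted p = 0.067 without NZB mouse 3.

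Among the basal keratins, Krt5 had 3.83, 9.78 and 0.767 non-milk CPM in NZB mice, against 37.1, 54.01 and 36.1 in C57 mice (log2 fold change -3.24, SE 0.46, adjusted p = 2.6e-04). Krt14, the type I partner of Krt5, had 2.997, 7.99 and 1.02 in NZB and 17.5, 41.7 and 17.1 in C57 mice (log2 fold change -2.54, SE 0.39, adjusted p = 4.6e-04). Krt17, a type I keratin of basal and stressed epithelium, had 4.02, 5.91 and 1.94 in NZB mice and 15.02, 22.5 and 9.65 in C57 mice (log2 fold change -1.76, SE 0.36, adjusted p = 0.0051). The basal keratins thus repeated the order of the luminal ones, with NZB mouse 3 lowest and C57 mouse 2 highest. Krt15 was near the detection limit in both genotypes, with 0.759, 0.612 and 0 in NZB mice and 1.21, 2.76 and 1.33 in C57 mice. The 0 of NZB mouse 3 allows up to 0.307 non-milk CPM (3 counts, counting error only).

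Epcam, an adhesion protein of epithelial cell contacts, had 13.96, 36.2 and 5.93 non-milk CPM in NZB mice, against 69.9, 172 and 74.4 in C57 mice (log2 fold change -2.63, SE 0.38, adjusted p = 3.0e-04). Cdh1 had 37.4, 90.2 and 13.4 in NZB mice and 181, 407 and 185 in C57 mice (log2 fold change -2.70, SE 0.46, adjusted p = 0.0011). For both adhesion genes every NZB mouse lay below every C57 mouse. As for the keratins, C57 mouse 2 was the highest and NZB mouse 3 the lowest, while the lowest C57 mouse was mouse 1 for 5 members and mouse 3 for the other 5. C57 mouse 2 was the highest C57 mouse for 10 of 10 members, NZB mouse 2 the highest NZB mouse for 9, and NZB mouse 3 the lowest NZB mouse for 10. From the lowest to the highest NZB mouse the levels differed 9.52-fold for Krt18, 15.4-fold for Krt19 and 6.11-fold for Epcam, and in C57 mice 2.15-fold, 2.11-fold and 2.46-fold.

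**Figure D2:**
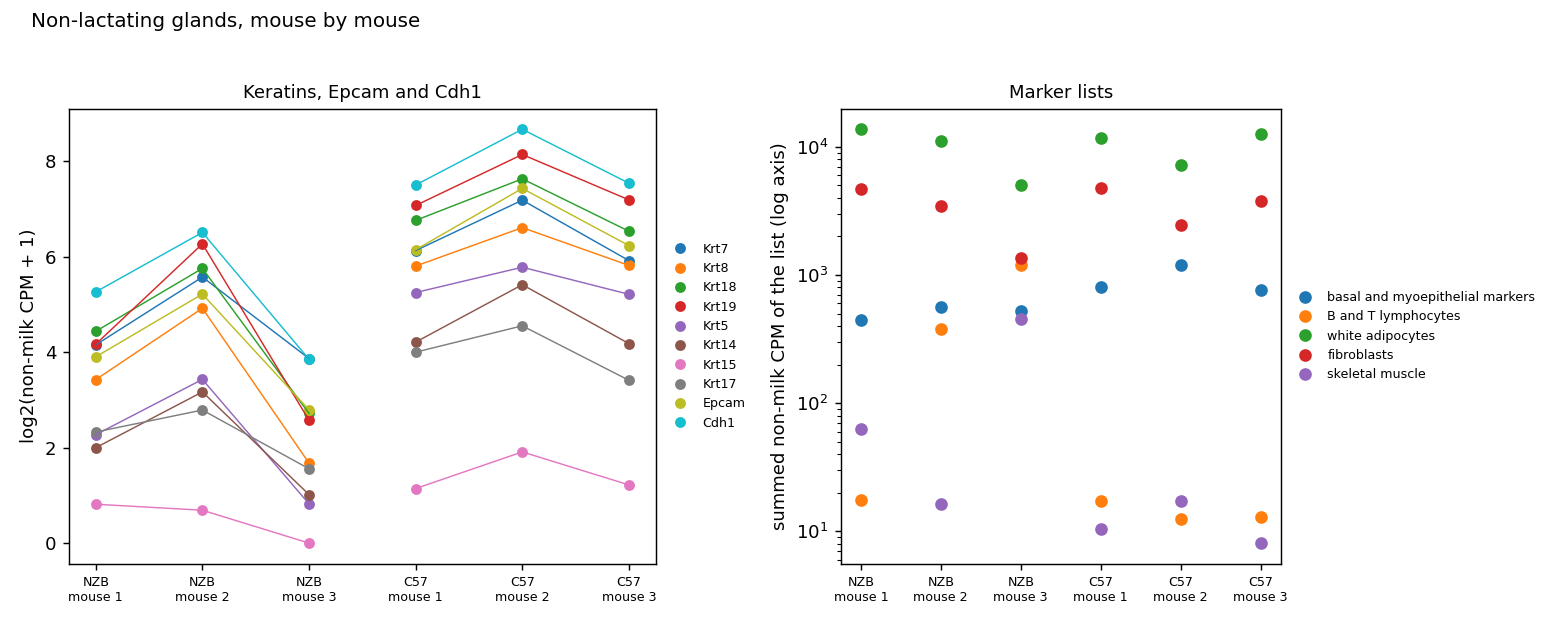
Non-lactating glands mouse by mouse: the left panel plots log2(non-milk CPM + 1) of the 10 genes with lines joining the mice of a genotype, and the right panel the summed non-milk CPM of marker lists on a log axis. Mouse 2 is the highest of its genotype and NZB mouse 3 the lowest for all genes shown except Krt15, whose highest NZB value is in mouse 1, while B and T lymphocyte genes reach 378 and 1205 non-milk CPM in NZB mice 2 and 3.

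Other cell types differed between the same glands. The 8 lymphocyte genes summed to 17.4, 378 and 1205 non-milk CPM in NZB mice 1, 2 and 3 and to 12.6 to 17.3 in C57 mice, with 7 of 8 genes higher in NZB by the test. The 5 skeletal muscle genes summed to 63.01, 16.2 and 453 in NZB mice and 8.098 to 17.4 in C57 mice, with no gene called. The 7 adipocyte genes summed to 5039 to 13684 in NZB and 7234 to 12488 in C57 mice, again with no gene called. NZB mouse 1, at 17.4 for the lymphocyte and 63.01 for the muscle genes, was below every C57 mouse for all 10 members. With mouse 1 as the only NZB gland, the difference from C57 was -2.70 for Epcam, -2.54 for Krt18 and -1.66 for Krt17. That setting has no NZB replicate. The part of other cell types in the difference was not tested. The calls of the 9 members rest on a spread shared with lactating glands. In a fit of these 6 mice alone no member passed, and the adjusted p of the 9 called members lay between 0.30 and 0.32, with 6 genes called over the whole table.

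In C57 glands the members moved in different directions with lactation. On day 8, set against non-lactating glands, Krt7, Krt18, Krt19 and Cdh1 fell and Krt15 rose, so that 5 of 10 members changed, against 44.9% of all genes (13.2% higher and 31.7% lower). The luminal keratins Krt7 and Krt19 and the basal keratin Krt15 kept these directions on days 14 and 21. Epcam rose on days 14 and 21, and 4 of 10 members were called on each of those days, against 39.1% of all genes on day 14 (14.0% higher and 25.1% lower) and 40.0% on day 21 (13.9% higher and 26.1% lower). The shares called are thus close to the background, and what differs between members is the direction.

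Krt19 had 24.9, 23.3 and 13.6 non-milk CPM on day 8, 16.6, 12.7 and 17.3 on day 14 and 20.7, 10.5 and 14.7 on day 21 in C57 mice 1, 2 and 3, all below the 134 to 282 of the non-lactating glands. Its log2 fold changes were -3.08, adjusted p = 2.0e-04 on day 8, -3.44, adjusted p = 7.2e-05 on day 14 and -3.49, adjusted p = 5.8e-05 on day 21. Krt7 had 10.9, 8.54 and 9.98 on day 8, 8.73, 6.94 and 11.5 on day 14 and 12.8, 6.98 and 13.1 on day 21, against 59.6 to 145 in non-lactating glands. Its log2 fold changes were -2.99, -3.11 and -2.88 on the 3 days (adjusted p at most 5.3e-06), a level between 0.116 and 0.136 times that of non-lactating glands. All 9 lactating C57 glands lay below all 3 non-lactating ones for both genes. Krt18 had 40.7, 50.98 and 32.6 on day 8, 79.5, 45.7 and 61.1 on day 14 and 47.8, 38.01 and 87.1 on day 21, and it fell on day 8 (-1.60, adjusted p = 0.020) and missed the threshold on days 14 (-1.03, adjusted p = 0.14) and 21 (-1.19, adjusted p = 0.086). The day 8 value was -1.27, adjusted p = 0.10 without C57 non-lactating mouse 2, -1.44, adjusted p = 0.070 without C57 day 8 mouse 3 and -1.27, adjusted p = 0.060 after scaling by median ratios. Krt8 had 40.3, 37.7 and 33.5 on day 8, 72.4, 46.3 and 49.7 on day 14 and 53.8, 38.8 and 71.6 on day 21, with log2 fold changes of -0.83, -0.27 and -0.32 that did not pass. On day 8 all 3 lactating glands lay below the 54.95 to 96.8 of the non-lactating glands for Krt8.

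The basal pair Krt5 and Krt14 was not called on any day in C57 glands. Krt5 had 27.9, 35.98 and 30.5 non-milk CPM on day 8, 32.7, 43.8 and 26.2 on day 14 and 28.4, 34.4 and 26.5 on day 21, against 36.1 to 54.01 in non-lactating glands. Its day 8 log2 fold change had a 95% interval of -1.35 to 0.55. Krt14 had 21.9, 29.5 and 29.3 on day 8, 22.03, 24.5 and 29.8 on day 14 and 19.3, 25.9 and 40.5 on day 21, and its day 8 interval was -0.62 to 0.99. Krt17 had 14.3 to 23.95 on day 8, 19.5 to 19.9 on day 14 and 15.2 to 29.5 on day 21, overlapping the 9.65 to 22.5 of non-lactating glands. Its log2 fold changes were 0.19, 0.38 and 0.41, with no call. Krt15 rose from day 8 on. It had 6.45, 11.7 and 10.7 on day 8, 12.6, 8.43 and 7.397 on day 14 and 9.59, 5.36 and 8.397 on day 21, above the 1.21 to 2.76 of every non-lactating gland (1.95, adjusted p = 0.0086 on day 8). On day 21 (1.68, adjusted p = 0.024) the call was lost when any one of 4 mice was left out (C57 non-lactating mice 1 and 3 and C57 day 21 mice 1 and 3, adjusted p 0.065 to 0.078), and with no filter on low values (adjusted p = 0.055).

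Epcam had 177, 186 and 173 non-milk CPM on day 8, 261, 236 and 241 on day 14 and 239, 211 and 281 on day 21 in C57 glands, all above the 69.9 to 172 of the non-lactating glands. It rose on day 14 (1.34, adjusted p = 0.0070) and day 21 (1.32, adjusted p = 0.0077), and on day 8 missed the threshold (0.88, adjusted p = 0.063), which it passed without C57 non-lactating mouse 2 (1.30, adjusted p = 0.0098). Cdh1 had 98.6, 75.9 and 84.8 on day 8, 402, 212 and 248 on day 14 and 372, 206 and 248 on day 21. It fell on day 8 (-1.47, adjusted p = 0.012), to levels below all 3 non-lactating glands, and overlapped them on the later days. The day 8 call was -1.08, adjusted p = 0.084 without C57 non-lactating mouse 2. Adipocyte, fibroblast and macrophage genes fell in the same comparison (7 of 7, 6 of 6 and 4 of 4 on day 8), and their part in the member changes was not tested. With the milk genes left in the total, Epcam lay below non-lactating glands on all 3 days (-1.05, -0.43 and -0.46), as did most genes. Krt14 and Krt17 also lay lower on that scale (-1.63 and -1.55 on day 8), and so did Cdh1 on days 14 and 21 (-1.56 and -1.62). On day 8 it called 350 higher and 14327 lower, the non-milk scale 2126 higher and 5111 lower, and scaling by median ratios 3241 higher and 3812 lower, with a median over all genes of -1.80, -0.32 and -0.05. These counts were 418 higher and 13920 lower, 2260 higher and 4048 lower and 2968 higher and 3538 lower on day 14, and 405 higher and 13960 lower, 2238 higher and 4204 lower and 2953 higher and 3551 lower on day 21. Of the members, 0 rose and 9 fell on day 8 with the milk genes left in the total, and 2 rose and 3 fell with median ratios.

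**Figure D3:**
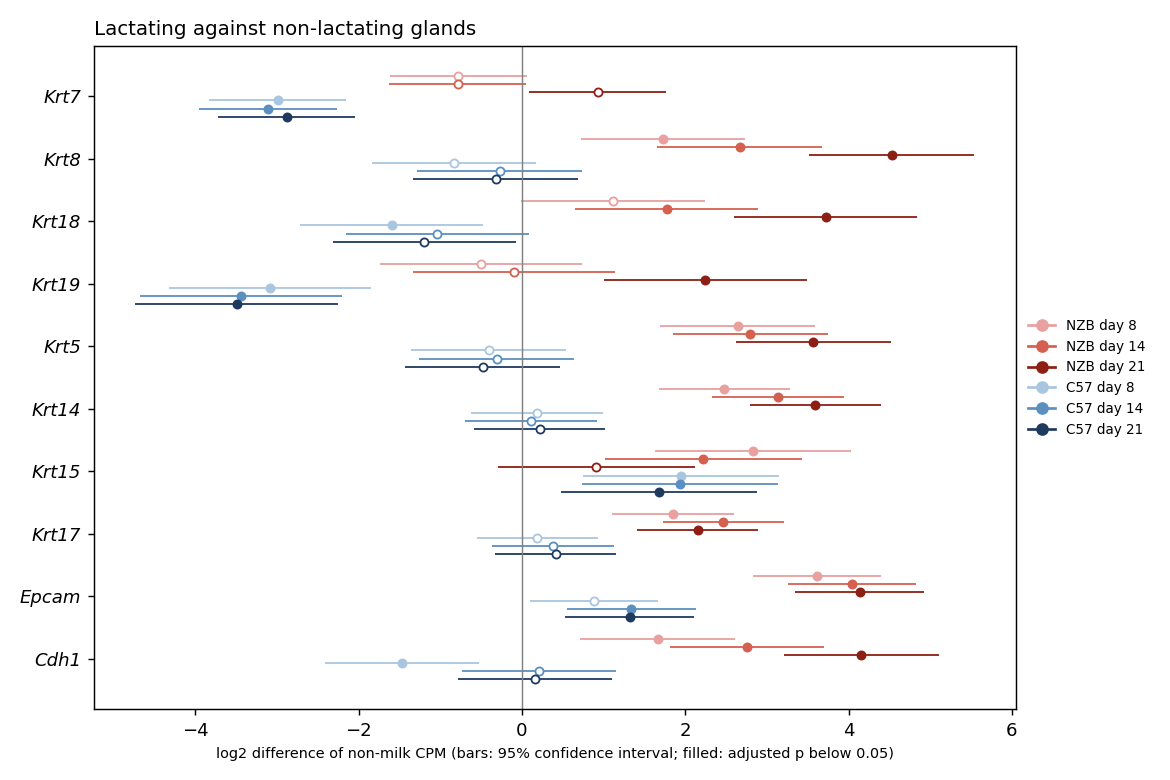
Log2 difference of non-milk CPM between lactating and non-lactating glands for each gene (horizontal axis), with NZB glands in red and C57 glands in blue, darker from day 8 to day 21, bars for the 95% confidence interval and filled points for an adjusted p below 0.05. Epcam, Krt5, Krt14 and Krt17 lie to the right in NZB glands on all 3 days, and Krt7 and Krt19 lie near -3 in C57 glands.

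In NZB glands the same comparison gave increases. On day 8, set against NZB non-lactating glands, 7 of 10 members rose and none fell, against 47.7% of all genes (14.8% higher and 32.9% lower). On day 14 and on day 21 there were 8 that rose, against 46.7% of all genes on day 14 (15.6% higher and 31.0% lower) and 32.9% on day 21 (17.2% higher and 15.7% lower). The median log2 fold change of the members was 1.79, 2.57 and 3.58 on the 3 days, against -0.31, -0.34 and -0.07 over all genes. All 3 contrasts use the same NZB non-lactating mice, which were low for every member. Other cell types moved in these comparisons as well. On day 8, 7 of 7 adipocyte, 8 of 8 lymphocyte, 6 of 6 fibroblast, 4 of 4 macrophage and 4 of 4 endothelial genes fell. Adipocyte genes summed to 458 to 809.7 non-milk CPM on day 8, against 5039 to 13684 in NZB non-lactating glands, and lymphocyte genes to 11.4 to 19.4, against 17.4 to 1205. On day 21, 6 adipocyte, 5 lymphocyte, 3 fibroblast and 4 endothelial genes were lower than in non-lactating glands, and 1 macrophage gene was higher. Their part in the members' rise was not tested. With the milk genes left in the total, Krt8, Krt18 and Cdh1 lay at -0.08, -0.71 and -0.23 on day 8 and 4 members were called. That scale called 481 higher and 14296 lower of all genes on day 8, the non-milk scale 2392 higher and 5299 lower, and scaling by median ratios 3418 higher and 4047 lower. The counts in that order were 587 higher and 14125 lower, 2522 higher and 5005 lower and 3410 higher and 3700 lower on day 14, and 1588 higher and 5130 lower, 2769 higher and 2534 lower and 2917 higher and 2621 lower on day 21. Of the members, 2 rose and 2 fell on day 8 with the milk genes left in the total, and 7 rose and 0 fell with median ratios.

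Epcam had 234, 161 and 186 non-milk CPM on day 8 and 263, 215 and 301 on day 14 in NZB mice, against 5.93 to 36.2 in non-lactating glands. It rose by 3.62 and 4.04 on the log2 scale (adjusted p = 9.1e-08 and 2.0e-08). Cdh1 had 148, 105 and 101 on day 8 and 217, 165 and 428 on day 14, and rose by 1.66 (adjusted p = 0.0046) and 2.75 (adjusted p = 4.1e-05). Every lactating NZB gland was above every non-lactating one for both adhesion genes.

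The 4 basal keratins rose on both days. Krt5 had 32.2, 21.1 and 29.4 on day 8 and 44.1, 28.8 and 21.9 on day 14, against 0.767 to 9.78 in non-lactating glands (2.64, adjusted p = 6.1e-05 on day 8). Krt14 had 24.8, 18.7 and 23.8 on day 8 and 29.1, 41.5 and 37.6 on day 14, against 1.02 to 7.99 in non-lactating glands (2.48, adjusted p = 1.8e-05 on day 8). The ranges were apart on both days. Krt15 rose by 2.83 on day 8 (adjusted p = 3.6e-04), with 15.4, 5.52 and 8.56, and by 2.22 on day 14 (adjusted p = 0.0036), with 7.34, 10.6 and 1.97. Krt17 rose by 1.85 on day 8 and 2.47 on day 14 (adjusted p = 2.1e-04 and 8.3e-06).

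The luminal keratins were not all called. Krt8 had 28.5, 31.5 and 38.7 on day 8 and 54.3, 46.8 and 99.99 on day 14 in NZB mice, against 2.199 to 29.3 in non-lactating glands. It rose on day 8 (1.73, adjusted p = 0.0055), though without NZB non-lactating mouse 3 the value was 0.90, adjusted p = 0.057, and on day 14 (2.67, adjusted p = 1.2e-04). Krt18 had 44.2, 42.3 and 39.3 on day 8 and 37.7, 55.97 and 138 on day 14, against 5.57 to 53.1 in non-lactating glands. It rose on day 14 (1.77, adjusted p = 0.011) and not by the test on day 8 (1.12, adjusted p = 0.094), and the groups overlapped on both days. The day 14 value was 0.98, adjusted p = 0.11 without NZB non-lactating mouse 3 and 1.25, adjusted p = 0.082 without NZB day 14 mouse 3. Krt7 (-0.78 and -0.79) and Krt19 (-0.50 and -0.10) were not called on days 8 and 14, and their lactating mice overlapped the non-lactating ones. NZB day 14 mouse 3 stood above the other NZB day 14 mice for Krt7, Krt8, Krt18, Krt19 and Cdh1 and below them for Krt15.

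Day 21 was set against the same NZB non-lactating glands. The luminal pair had its largest log2 fold changes of the 3 days there, 4.53, adjusted p = 3.2e-07 for Krt8 and 3.72, adjusted p = 1.7e-05 for Krt18. Epcam (4.14), Cdh1 (4.16), Krt5 (3.56), Krt14 (3.59), Krt17 (2.15) and Krt19 (2.25, adjusted p = 0.0057) rose too. All these genes but Krt19 lay above every non-lactating NZB gland. In a fit of the compared groups alone Krt19 did not pass (2.25, adjusted p = 0.095), nor did Krt8 (1.73, adjusted p = 0.094) and Cdh1 (1.66, adjusted p = 0.060) on day 8. Krt7 (0.93, adjusted p = 0.085) and Krt15 (0.91, adjusted p = 0.25) were not called on day 21.

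The genotypes did not differ in any member by the test on day 8 or on day 14. With 0 of 10 members called, 0.0372% of all genes passed on each day (0.0310% higher and 0.00620% lower), and 889 and 499 genes had an unadjusted p below 0.05. The 95% interval of the log2 difference on day 8 was -1.08 to 1.16 for Krt18, -0.69 to 0.89 for Epcam and -0.51 to 1.38 for Cdh1. Every NZB mouse lay above every C57 mouse for Krt7 and Cdh1 on day 8 and for Krt17 on day 14, while the other 8 and 9 members overlapped. The share of all genes so separated is not given here, so these cases are not read as a difference.

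The change to day 8 was compared between genotypes as a difference of differences. It was larger in NZB glands for Krt5 (3.04, SE 0.65, adjusted p = 0.027), Epcam (2.73, SE 0.54, adjusted p = 0.018) and Cdh1 (3.13, SE 0.65, adjusted p = 0.023), so that 3 of 10 members passed, against 0.751% of all genes (0.701% higher and 0.0496% lower). The other 7 members had differences of 0.88 (Krt15) to 2.71 (Krt18) in the same direction. Each of the 3 calls was lost when some single mice were left out, with adjusted p up to 0.099 for Krt5, 0.067 for Epcam and 0.092 for Cdh1 (without C57 non-lactating mouse 2 in all 3 cases). None was kept with the compared groups alone (adjusted p 0.13, 0.17 and 0.14) or with no filter on low values (0.085, 0.058 and 0.078).

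In late lactation the luminal keratins rose in NZB glands. From day 14 to day 21, 5 of 10 members rose in NZB glands (Krt7, Krt8, Krt18, Krt19 and Cdh1), against 22.4% of all genes (16.4% higher and 5.97% lower). In C57 glands 0 of 10 members were called, as were 0% of all genes, with 173 genes at an unadjusted p below 0.05, and all 10 members overlapped between days. Against C57 glands on day 21 the same 5 members were higher in NZB glands and Krt15 was lower, so that 6 of 10 were called, against 25.3% of all genes (19.5% higher and 5.81% lower). The median of all genes was 0.28 for NZB day 21 against day 14 and 0.30 for NZB against C57 on day 21, so the members' changes are to be read beside those shifts. Over C57 the non-milk scale called 3144 higher and 937 lower, the total with milk genes 13752 higher and 162 lower and median ratios 1594 higher and 1579 lower. Over day 14 these counts were 2645 higher and 963 lower, 13844 higher and 148 lower and 1258 higher and 1555 lower. Of the members, 9 rose and 0 fell over day 14 with the milk genes left in the total and 4 rose and 0 fell with median ratios, and against C57 the counts were 9 higher and 0 lower and 4 higher and 1 lower. These comparisons share the NZB day 21 mice.

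Krt18 had 163, 250.4 and 426 non-milk CPM in NZB day 21 mice 1, 2 and 3, against 37.7, 55.97 and 138 in NZB day 14 mice and 47.8, 38.01 and 87.1 in C57 day 21 mice. Its log2 fold change was 1.95 over day 14 (SE 0.54, adjusted p = 0.013) and 2.24 over C57 (SE 0.54, adjusted p = 0.0044), a 4.72-fold level. Every NZB day 21 mouse was above every mouse of both other groups. The call over day 14 was lost without NZB day 14 mouse 1 (1.55, adjusted p = 0.075), NZB day 14 mouse 2 (1.82, adjusted p = 0.057) or NZB day 21 mouse 3 (1.59, adjusted p = 0.068).

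Krt8 had 180.5, 223 and 313 in NZB day 21 mice, against 54.3, 46.8 and 99.99 on NZB day 14 and 53.8, 38.8 and 71.6 in C57 day 21 mice. It rose by 1.86 over day 14 (adjusted p = 0.0090) and was 2.11 higher than in C57 (adjusted p = 0.0030), a 4.32-fold level. Without NZB day 14 mouse 2 the first of these was 1.65, adjusted p = 0.053. The mean of both chains of the luminal pair was the highest of all 8 groups in NZB glands on day 21, and no mouse of that group overlapped the other lactating groups for either gene.

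Krt19 had 127, 98.1 and 68.9 in NZB day 21 mice, against 10.04, 14.3 and 38.8 on NZB day 14 and 20.7, 10.5 and 14.7 in C57 day 21 mice (log2 fold change 2.61, SE 0.60, adjusted p = 0.0029 over C57). Krt7 had 37.8, 46.5 and 45.1 in NZB day 21 mice, against 8.53, 8.66 and 25.2 on NZB day 14 and 12.8, 6.98 and 13.1 in C57 day 21 mice (log2 fold change 1.92, SE 0.40, adjusted p = 0.0015 over C57). Both ductal keratins stood above the other lactating groups without overlap and below every C57 non-lactating gland. Both calls over day 14 (2.35, adjusted p = 0.0076 for Krt19 and 1.71, adjusted p = 0.0047 for Krt7) held with any one mouse left out.

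Cdh1 had 605, 646 and 734 in NZB day 21 mice, against 217, 165 and 428 on NZB day 14 and 372, 206 and 248 in C57 day 21 mice. It was 1.40 higher than on day 14 (adjusted p = 0.030) and 1.30 higher than in C57 (adjusted p = 0.040), and the 3 NZB mice lay above all mice of both other groups. Each of these calls was lost when any one of 5 mice was left out, with adjusted p up to 0.15 over day 14 (without NZB day 14 mouse 2) and 0.14 over C57 (without C57 day 21 mouse 2). With no filter on low values neither call was kept (adjusted p = 0.068 and 0.084). Epcam was not called beside Cdh1. It had 314, 239 and 276 in NZB day 21 mice and 239, 211 and 281 in C57 day 21 mice, a log2 difference of 0.18 with a 95% interval of -0.60 to 0.97.

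Of the basal keratins, Krt15 alone was called against C57 on day 21. Krt5 had 87.2, 65.6 and 24.9 in NZB mice and 28.4, 34.4 and 26.5 in C57 mice (0.81, adjusted p = 0.20), with NZB mice 1 and 2 above and mouse 3 below the C57 mice. Krt14 had 60.05, 46.2 and 43.2 in NZB mice and 19.3, 25.9 and 40.5 in C57 mice (0.83, adjusted p = 0.12), apart but not called. Krt17 had 34.2, 19.9 and 11.2 in NZB mice and 18.1, 15.2 and 29.5 in C57 mice, overlapping (-0.02, adjusted p = 0.97). Krt15 had 8.58, 0.0822 and 0.819 in NZB mice and 9.59, 5.36 and 8.397 in C57 mice (log2 fold change -1.69, SE 0.58, adjusted p = 0.036), with NZB mice 2 and 3 low, and mouse 1 lay within the C57 range. The Krt15 call was lost when any one of 4 mice was left out, with adjusted p up to 0.23 without NZB mouse 2, and its adjusted p was 0.076 with no filter on low values.

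The change from day 14 to day 21 was not shown to differ between genotypes for any member: 0 of 10 passed, against 6.52% of all genes (4.10% higher and 2.42% lower). The non-milk scale called 661 higher and 390 lower there, the total with milk genes 12019 higher and 85 lower and median ratios 268 higher and 565 lower. The differences of 1.91 for Krt8, 2.10 for Krt18, 2.40 for Krt19 and 1.48 for Krt7 had adjusted p of 0.095, 0.099, 0.087 and 0.12. With the 4 groups compared alone Krt8 (adjusted p = 0.024) and Krt19 (adjusted p = 0.028) passed. Other cell types moved on day 21 too. Adipocyte genes summed to 5059, 1422 and 1425 non-milk CPM in NZB mice and 330.4 to 907 in C57 mice (7 of 7 genes higher in NZB), fibroblast genes to 612 to 1466 and 339 to 432 (6 of 6), and macrophage genes to 112 to 207 and 56.3 to 69.5 (3 of 4). Skeletal muscle genes summed to 235, 853 and 6.92 in NZB mice and 3.94 to 8.41 in C57 mice (5 of 5), and 1 of 4 endothelial genes was lower in NZB. NZB mouse 3 had the highest Krt8, Krt18 and Cdh1 of the NZB mice and the lowest Krt5, Krt14, Krt17 and Krt19. The part of these cell types in the member changes was not tested.

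**Figure D4:**
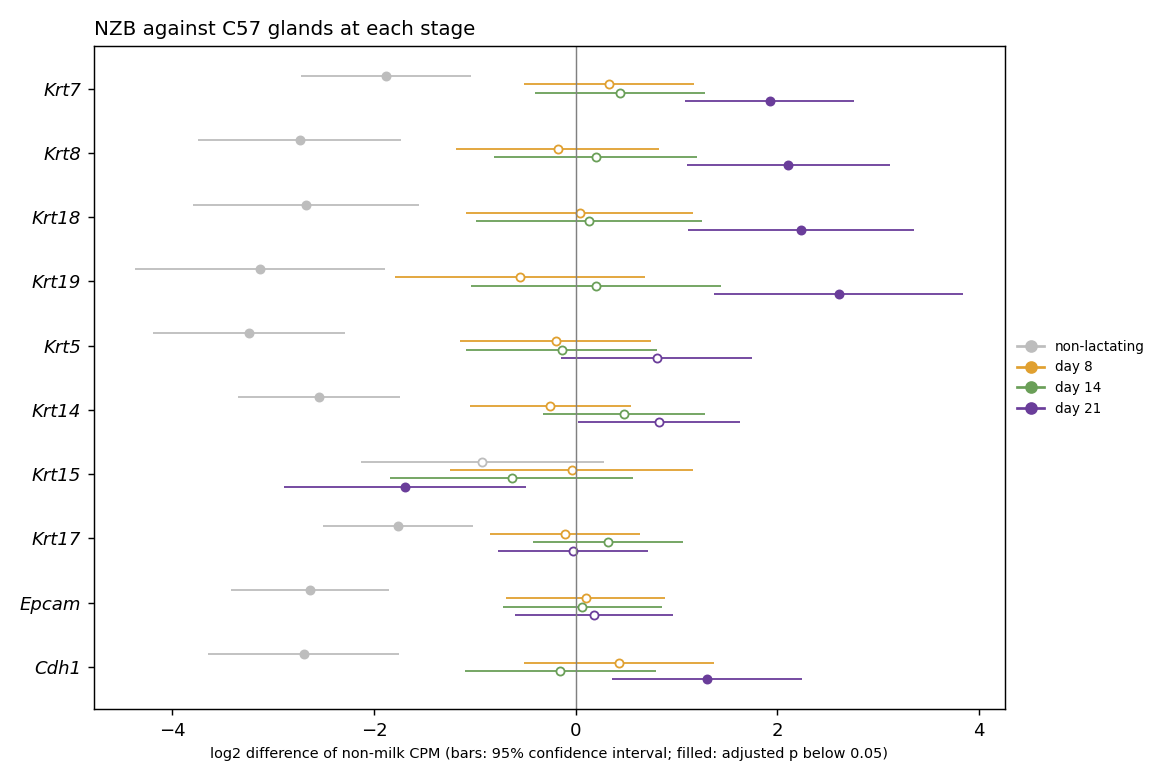
Log2 difference of non-milk CPM between NZB and C57 glands (horizontal axis) for each gene at the 4 stages, with bars for the 95% confidence interval and filled points for an adjusted p below 0.05. The non-lactating points lie left of 0 for all 10 genes, the day 8 and day 14 points are open, and on day 21 the luminal keratins and Cdh1 lie right of 0.

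Ratios within a mouse show which members kept step. They are ratios of CPM, not corrected for transcript length, so only their change between mice can be read, and they are descriptions without a test. In the 6 non-lactating glands Cdh1 stood at 2.27 to 2.68 times Epcam and Krt18 at 0.94 to 1.54 times, although the summed CPM of the 8 keratins ran from 30.1 in NZB mouse 3 to 842 in C57 mouse 2. The genotypes overlapped in both ratios. Krt7 over Epcam was 1.204, 1.29 and 2.29 in NZB mice and 0.988, 0.843 and 0.801 in C57 mice, apart without overlap, and Krt5 over Epcam was 0.275, 0.27 and 0.129 in NZB and 0.53, 0.314 and 0.486 in C57 mice, apart in the other direction.

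In the 15 lactating glands other than NZB day 21, Krt18 over Epcam was 0.144 to 0.459, Krt19 over Epcam 0.0382 to 0.14 and Krt7 over Epcam 0.0294 to 0.0887, all below every non-lactating gland. Cdh1 over Epcam was 0.408 to 0.653 in the 6 glands of day 8 and reached 1.56 later. In NZB day 21 mice 1, 2 and 3 Krt18 over Epcam was 0.518, 1.05 and 1.54, and Cdh1 over Epcam was 1.93, 2.71 and 2.66, so that mouse 1 lay between the other lactating and the non-lactating glands, and mice 2 and 3 at or near the values of the non-lactating ones. Krt19 over Epcam (0.404, 0.411 and 0.249) and Krt7 over Epcam (0.12, 0.195 and 0.163) stayed below every non-lactating gland. Krt8 over Krt18 was 0.395 to 0.604 in non-lactating glands, 0.644 to 1.44 in the 15 lactating glands and 1.11, 0.892 and 0.734 in NZB day 21 mice, and no lactating gland overlapped the non-lactating ones. In this ratio the NZB day 21 glands lay among the lactating ones.

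The 4 basal keratins made up 10.6 to 16.2% of the summed keratin CPM in non-lactating glands, 33.01 to 48.7% in the 9 lactating C57 glands, and 45.1, 38.5 and 44.4% on day 8 and 48.97, 46.5 and 21.4% on day 14 in NZB mice 1, 2 and 3. On day 21 the share was 27.2, 17.6 and 8.59% in NZB mice, below all lactating C57 glands. Among the 15 lactating glands other than NZB day 21, NZB day 14 mouse 3 had the lowest basal share and the highest Krt18 over Epcam.

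**Figure D5:**
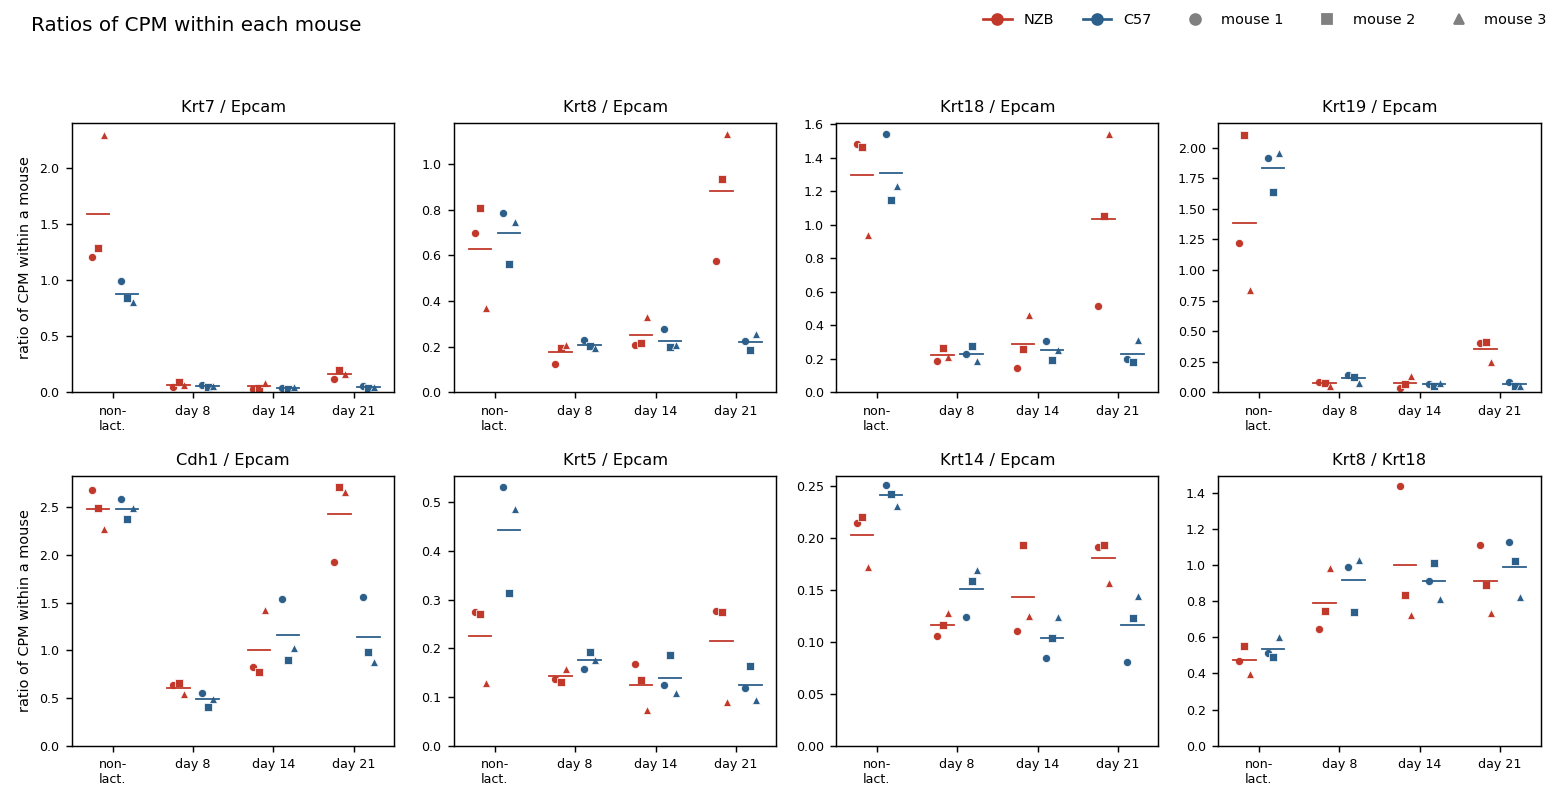
Ratio of non-milk CPM of pairs of genes within each mouse (vertical axis) by stage, with NZB glands in red, C57 glands in blue, a marker shape for each mouse and a bar for the mean. Krt18 and Cdh1 over Epcam are high in non-lactating glands of both genotypes, low on days 8 and 14, and high again in NZB glands on day 21, while Krt8 over Krt18 is lowest in non-lactating glands.

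The labelled tissue and the source of the basal keratins were checked against other markers. Krt1 and Krtdap, which define keratinising epidermis, were at or below 0.273 non-milk CPM in every gland, and the 14 epidermis and hair follicle genes summed to 11.8 to 15.2 in NZB and 14.3 to 16.1 in C57 non-lactating glands. On day 21 that sum was 30.1, 39.4 and 57.6 in NZB mice, against 5.26 to 9.52 in C57 mice. Of the 4 genes of that list high enough to test, Sbsn and Asprv1 were higher in NZB there (2.89, adjusted p = 1.5e-05 and 2.78, adjusted p = 2.1e-04), and the part of skin in the basal keratins was not tested. Krt10, the usual partner of Krt1, was at 0.411 to 5.71 in all glands. Of 10 other keratins, 3 were high enough to test. Krt222, Krt80 and Krt23 fell on day 8 in C57 glands (-1.16, -1.38 and -0.88), and Krt222 fell in NZB glands (-0.89), in which Krt80 (-0.73) and Krt23 (0.27) were not called.

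Most genes known to work with Epcam rose on day 8. Of 9 partners and surface proteases, 8 rose and 1 fell in NZB glands on day 8, and 6 rose and 1 fell in C57 glands (median 2.84 and 0.99, against -0.31 and -0.32 over all genes). Of all genes 14.8% rose and 32.9% fell in NZB glands on day 8, and 13.2% rose and 31.7% fell in C57 glands. St14, the serine protease matriptase that cleaves Epcam, rose by 3.68 in NZB and 2.01 in C57 glands, and its inhibitor Spint1 by 3.53 and 0.99. Cldn7, the claudin that binds Epcam, rose by 3.13 and 1.67, and the protease Prss8 by 3.91 and 1.61. On day 21, 2 of the 9 were higher in NZB than in C57 glands and none lower, near the share of all genes (19.5% higher and 5.81% lower). The tetraspanin Cd9 was among the higher ones (1.10, adjusted p = 0.011). With the milk genes left in the total the day 8 counts were 5 higher and 2 lower in NZB and 0 higher and 5 lower in C57 glands, so the direction of this list in C57 glands depends on the scale, and with median ratios 8 higher and 1 lower and 6 higher and 1 lower.

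Junction partners of Cdh1 were counted in the same way. Of 16 catenin, nectin, cadherin and desmosome genes tested, 10 were higher in NZB than in C57 glands on day 21 and none lower (median 0.86, against 0.30 over all genes). Of all genes 19.5% were higher and 5.81% lower in that comparison. Ctnnb1 (beta-catenin) was 0.86 and Ctnna1 (alpha-catenin) 1.11 higher, Pkp3, a desmosome plaque protein, 1.88, and Vcl (vinculin) 1.18 (adjusted p = 5.6e-04, 7.0e-04, 0.0021 and 0.0046). In C57 glands on day 8, when Cdh1 fell, 8 of the 16 fell and 1 rose (median -0.72, against -0.32), with Vcl at -1.93, Pkp1 at -2.80, Dsp (desmoplakin) at -2.05 and Ctnna1 at -1.05, and Perp, a desmosome membrane protein, higher at 1.34, adjusted p = 0.017. In NZB glands on day 8 there were 5 that rose and 4 that fell (median 0.30, against -0.31), and Perp had the largest increase among the 16 (3.54). In non-lactating glands 8 of the 16 were lower in NZB, against 3.60% of all genes, among them Dsp (-2.59) and Perp (-2.53). With median ratios 4 were higher and 0 lower in NZB on day 21, and on day 8 the counts were 6 higher and 0 lower in NZB and 1 higher and 6 lower in C57 glands. With the milk genes left in the total these counts were 16 higher and 0 lower, 1 higher and 13 lower, and 0 higher and 15 lower.

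Of the 6 repressors of Cdh1, 5 fell on day 8 in NZB glands and 5 in C57 glands, and Snai2 was not called (0.24 in NZB and -0.36 in C57), with medians over the list of -2.52 and -2.50. Among all genes 32.9% fell in NZB and 31.7% in C57 glands on day 8, with medians of -0.31 and -0.32. Zeb2 was at -3.31 and -4.08, Zeb1 at -2.64 and -2.17, Snai1 at -2.17 and -2.57 and Twist1 at -2.52 and -3.21. The sum over the 6 was 602 to 935 non-milk CPM in NZB and 771 to 1040.2 in C57 non-lactating glands, and 89.7 to 112 and 70.7 to 106 on day 8. On day 21 it was 459.6, 212 and 203 in NZB mice, against 78.5 to 148 in C57 mice. There Zeb2 (1.50), Snai2 (1.01) and Twist1 (1.44) were higher in NZB glands, in the same glands in which Cdh1 was higher. Fibroblasts also express these repressors, and fibroblast genes moved in the same comparisons. Which cells held either transcript was not tested. On day 8 no repressor rose on any of the 3 scales. For day 21 in NZB over C57, 1 was higher and 0 lower with median ratios, and 6 were higher and 0 lower with the milk genes left in the total.

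Other markers of the cell layers were read beside the keratins. For the day 8 counts, 14.8% of all genes rose and 32.9% fell in NZB glands (median -0.31). In C57 glands 13.2% rose and 31.7% fell (median -0.32). Of 10 basal and myoepithelial markers 7 rose and 2 fell in NZB glands on day 8, and 4 rose and 2 fell in C57 glands (medians 1.42 and 0.27). Myh11, smooth muscle myosin of myoepithelium, rose by 2.65 and 1.40, Tagln by 1.94 and 0.99 and Cnn1 by 3.29 and 1.18, while the Notch ligand Jag1 fell (-1.59 and -1.79) and so did Cnn2 (-1.67 and -1.08). Of 7 hormone-sensing luminal markers 6 were tested, and 5 fell in NZB and 5 in C57 glands on day 8 (medians -1.73 and -4.10), with Foxa1 at -2.70 and -6.20 and Pgr, the progesterone receptor, at -2.53 and -5.53. Of 6 luminal progenitor and secretory genes 4 rose and 1 fell in NZB glands, and 3 rose and 2 fell in C57 glands (medians 2.58 and 1.35). Elf5, which directs the milk-secreting cell, rose by 5.83 and 4.70, and Kit fell (-3.27 and -4.68). On day 21 Cd14, Kit and Aldh1a3 of this list were higher in NZB than in C57 glands (3.76, 2.90 and 1.75), as were Ly6a (3.00), Prom1 (1.88) and Pgr (2.02) of the hormone-sensing list, while Esr1 was lower (-1.38).

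Hemidesmosomes tie the keratin filaments of basal cells to the basal lamina. On day 8, 4 of 10 such genes rose and 2 fell in NZB glands, and none rose and 4 fell in C57 glands (medians 0.72 and -0.42). The shares of all genes were 14.8% higher and 32.9% lower in NZB glands (median -0.31). In C57 glands they were 13.2% higher and 31.7% lower (median -0.32), so the share of this list that fell there is near the background. The same shares stand beside the day 8 counts of the regulators and cadherins below. Col17a1, the hemidesmosome collagen, rose by 2.15 in NZB glands and was at 0.21, adjusted p = 0.62 in C57 glands. On day 21 Itgb4, the integrin that anchors keratin filaments at the basal lamina, was 1.90 higher in NZB than in C57 glands (adjusted p = 4.2e-04). Cd151 (0.98) and Dst (0.87) were higher too, among 5 of 10 that were higher, against 19.5% of all genes. Of 10 epithelial transcription and splicing regulators tested, 8 rose and none fell in NZB glands on day 8, and 5 rose and 3 fell in C57 glands (medians 2.23 and 0.66). Ehf, an ETS factor of epithelia, rose by 5.04 and 3.36 and Esrp1, the epithelial splicing regulator, by 4.56 and 2.22. Ovol1 and Esrp2 rose in both genotypes too (2.99 and 2.62 in NZB, 2.16 and 1.13 in C57), while Trps1, Elf3 and Ovol2 fell in C57 glands (-1.06, -1.79 and -1.29) and were at 0.90, 0.02 and 0.11 in NZB glands, where Trps1 rose. Of 5 other cadherins 4 were tested and 3 fell on day 8 in each genotype: Cdh11, a cadherin of mesenchyme (-2.63 in NZB and -3.52 in C57), Cdh5 of endothelium (-1.57 and -1.22) and Cdh2 (-2.05 and -1.23). On the total with milk genes the day 8 counts turned towards lower values: of the hemidesmosome list 0 higher and 8 lower in NZB and 0 higher and 10 lower in C57 glands, of the regulators 4 higher and 1 lower and 1 higher and 7 lower, and of the basal markers 3 higher and 4 lower and 0 higher and 10 lower. With median ratios the hemidesmosome list gave 6 higher and 0 lower in NZB and 2 higher and 1 lower in C57 glands.

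The genes whose levels over the 24 glands were most like a member were named by the root mean square difference of centred log2 values among 8115 genes. Nearest to Krt18 were Krt8 (0.42), the heat shock gene Hspa1b (0.43), the collagen gene Col4a5 (0.50), Plpp2 (0.51) and Tgfb3 (0.55). Nearest to Krt14 were Ripk4 (0.25), Tfap2a (0.30), Col17a1 (0.31), Acta2 (0.33) and Ptprf (0.34). Krt8 and Krt18 were each other's nearest gene, and Krt8 was the nearest gene to Cdh1 (0.43). Krt7 ranked 2 from Krt19 (0.61), while Krt19 ranked 53 from Krt7. The member nearest to Krt15 was Krt17 (0.94), in rank 502. The exons of Krt5, Krt7 and Krt8 overlap genes on the opposite strand (Gm44323, Gm671 and Gm36026) by 129, 77 and 101 bases, and counting by strand was not given in the sources used here.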

How the data were processed

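Polyadenylated RNA of 24 inguinal mammary glands, 3 mice in each of 8 groups of genotype and stage, was sequenced. The authors deposited 1 table of log10 values of CPM + 1 for 32544 gene symbols, with 2 columns per mouse. Genome builds GRCm38 and mm10 are named per the submitters' processing notes; the aligner and counter were not given in the sources used here. Values were turned back to CPM, which summed to 1000000 in each column, and whole reads were recovered in 100% of values within a tolerance of 0.05. The total reads of the columns of a mouse were within 1% of each other in 23 of 24 mice. Their gene counts differed by no more than counting noise in 22, so their mean counted as 1 replicate. In 27 rows the symbol had been turned into a date.

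Depth was 7031812 to 24253128 reads per mouse (mean of its columns), and 1 column of C57 non-lactating mouse 2 held 2174916 reads, the other 11888708. Values were rescaled to reads outside 17 milk protein genes, and genes above 1 CPM in at least 3 samples were tested as log2(non-milk CPM + 1), a scale that understates the change of low genes. limma 3.58.1 in R 4.3.3 fitted the 8 groups together (16 residual degrees of freedom) for 14 comparisons, with Benjamini-Hochberg adjustment over 16121 genes and a threshold of 0.05. Levels per kilobase use the union of exons in GENCODE M21, and for Krt7 the longest coding transcript. Tables were handled with Python 3.11.15, numpy 2.4.6 and pandas 2.3.3, and figures drawn with matplotlib 3.10.9. The fit was tested on simulated data.

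The members and the lists (partners of Epcam and Cdh1, repressors of Cdh1, other keratins and cadherins, hemidesmosome genes, epithelial regulators, markers of mammary and other cell types) were chosen with earlier results of these data known. Of each list, up to 4 genes with the smallest adjusted p in a comparison were named, and those called against the majority. Some genes that this rule names are not reported here. Alternatives were the deposited scale, median-ratio scaling, a pseudocount of 0.5, no filter, the compared groups alone, a replicate block, voom on recovered reads, the deeper column of C57 non-lactating mouse 2 alone, NZB non-lactating mice 2 and 3 left out, and each mouse left out in turn. A plan for count models was not followed in the main fit because the deposited unit is log10. The recovered reads were modelled only with voom, as an alternative.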

Additional observations from a re-analysis of the deposited data

Results flagged for a closer look

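Between non-lactating glands and day 8, 3 members changed by different amounts in the 2 genotypes by a test of the difference itself (limma, adjusted over 16121 genes). The difference, NZB minus C57 on the log2 scale, was 3.04 for Krt5 (adjusted p = 0.027), 2.73 for Epcam (adjusted p = 0.018) and 3.13 for Cdh1 (adjusted p = 0.023). Krt5 rose in NZB glands (2.64) and was at -0.40 in C57 glands, Epcam rose in NZB glands (3.62) and was at 0.88 in C57 glands, and Cdh1 rose in NZB glands (1.66) and fell in C57 glands (-1.47). On day 8 itself the genotypes were not called different for any of these genes (-0.20, 0.10 and 0.43), whereas in non-lactating glands NZB mice were lower (-3.24, -2.63 and -2.70). These calls are fragile: leaving out single mice gave 0 to 8 called members in place of 3, and 0 were called with no filter on low values, 0 with the compared groups alone and 1 with voom on recovered reads.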

How the results depend on the processing

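Each comparison was repeated under 9 alternatives and without each of the 24 mice in turn. Apart from NZB day 21, the lactating libraries hold 61.7% to 76.4% of their reads in the milk protein genes, which leaves the smaller part for all other genes. Low genes such as Krt15 rest on few reads, which limits what a miss means. No call changed when the shallow column of C57 non-lactating mouse 2 was left out, and the cause of the changes below was not tested. Over 140 values, a direction turned in 18 and a call changed in 53 with the milk genes left in the total, in 6 and 4 after scaling by median ratios, and in 0 and 23 with the compared groups alone.

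With the milk genes left in the total, 9 members were called in C57 day 8 glands, 8 at day 14 and 8 at day 21, against 5, 4 and 4 on the non-milk scale. In NZB glands 4 were called on day 8, against 7, and 9 for day 21 against day 14, against 5. The difference between genotypes in the change from day 14 to day 21 then called 8, against 0. On that scale Krt14 stood at -1.63, -1.54 and -1.45 in C57 glands on days 8, 14 and 21, Krt17 at -1.55, -1.24 and -1.21, and Epcam at -1.05, -0.43 and -0.46. Cdh1 stood at -1.56 and -1.62 on days 14 and 21. In NZB glands on day 8 Krt8 was at -0.0801, Krt18 at -0.71 and Cdh1 at -0.23. Krt17 was at 1.01 for NZB day 21 against day 14, 1.22 for NZB against C57 on day 21 and 0.98 for the difference between genotypes, and Krt15 at 0.0096 for that difference.

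After scaling by median ratios Krt19 was at 0.0836 on NZB day 14, and Epcam at -0.16 for NZB day 21 against day 14, -0.0937 for NZB against C57 on day 21, -0.15 for the difference in that change and -0.0417 on day 8, where Krt18 was at -0.10. Without NZB non-lactating mice 2 and 3, which left only mouse 1 in that group, Krt19 was at 0.0697 on NZB day 14. With no filter on low values 7 calls were lost: the 3 for the difference in the change to day 8, Krt15 on C57 day 21 (adjusted p = 0.055), Cdh1 for NZB day 21 against day 14 (0.068), and Cdh1 (0.084) and Krt15 (0.076) for NZB against C57 on day 21. That difference then called 0 members, 0 with the compared groups alone and 1 with voom on recovered reads. With the compared groups alone 0 members passed between genotypes in non-lactating glands and 2 for the difference in the change from day 14 to day 21.

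Leaving out single mice gave 4 to 7 called members in C57 glands at day 8, 4 at day 14 and 3 to 5 at day 21. It gave 7 to 8, 8 and 8 to 9 in NZB glands on days 8, 14 and 21, 2 to 6 for NZB day 21 against day 14 and 0 for C57. Between genotypes it gave 8 to 9 in non-lactating glands, none on days 8 and 14, and 4 to 6 at day 21. For the difference in the change to day 8 it gave 0 to 8, and for that in the change from day 14 to day 21 it gave 0 to 3.

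The log2 fold change crossed 0 without some single mice in these cases, none of them called with all mice. In C57 glands on day 8 it was -0.0246 to 0.59 for Krt14 and -0.0993 to 0.47 for Krt17. In C57 glands on day 14 it was -0.0994 to 0.52 for Krt14 and -0.0604 to 0.59 for Cdh1. In C57 glands on day 21 it was -0.0806 to 0.54 for Cdh1 and -0.0583 to 0.62 for Krt14. In NZB glands on day 8 it was -1.38 to 0.46 for Krt19. In NZB glands on day 14 it was -0.98 to 0.87 for Krt19. In NZB glands on day 21 it was -0.0126 to 1.56 for Krt15. For C57 day 21 against day 14 it was -0.26 to 0.17 for Krt8, -0.50 to 0.0908 for Krt18, -0.13 to 0.0761 for Epcam, -0.29 to 0.22 for Cdh1, -0.35 to 0.0136 for Krt5, -0.29 to 0.17 for Krt19, -0.17 to 0.35 for Krt14 and -0.23 to 0.23 for Krt17. For NZB day 21 against day 14 it was -0.0344 to 0.21 for Epcam and -0.69 to 0.07 for Krt17. For NZB against C57 on day 8 it was -0.39 to 0.28 for Krt15, -0.23 to 0.13 for Krt17, -0.12 to 0.20 for Krt18 and -0.0442 to 0.22 for Epcam. For NZB against C57 on day 14 it was -0.54 to 0.14 for Cdh1, -0.40 to 0.0869 for Krt5, -0.39 to 0.53 for Krt18, -0.0422 to 0.69 for Krt7, -0.12 to 0.42 for Krt8, -0.33 to 0.59 for Krt19 and -0.048 to 0.19 for Epcam. For NZB against C57 on day 21 it was -0.40 to 0.36 for Krt17. For the difference between genotypes in the change from day 14 to day 21 it was -0.0122 to 0.23 for Epcam and -0.73 to 0.0379 for Krt17.

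The mice of each group are numbered, but same-numbered mice did not deviate together (correlations from -0.40 to 0.48, not all above 0.1), so the numbers were not taken to pair them. With the replicate number as a block the counts of called members stayed at 5, 4 and 4 in C57 glands and 7, 8 and 8 in NZB glands on days 8, 14 and 21, and Krt14 passed for the difference in the change to day 8 (2.29, adjusted p = 0.043 with limma).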
